A study of Mus musculus with 3 samples.

Results

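The TRIM family was described in bone marrow-derived macrophages of the mouse strain C57BL/6J that met Lipid A a second time. Members were taken by name: every protein-coding gene whose symbol is Trim followed by digits and at most 2 letters, which gave 68 of 22028 protein-coding genes and of 55536 annotated genes. Lipid A is the TLR4-binding moiety of bacterial endotoxin: the cells had 100 ng/ml of it for 12 h, none for the next 12 h and 100 ng/ml again for 90 min. Their cytosol was then isolated, and its RNA was sequenced after removal of ribosomal RNA. All 3 libraries (replicates 1, 2 and 3) belong to this 1 group, so the values are levels in twice-exposed cells, and no change with treatment could be computed. All of them come from 1 donor record of unstated age, and the error given with each value covers the spread between these samples only.

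TRIM proteins carry a RING finger that makes most of them ubiquitin ligases, followed by B-box domains and a coiled coil, and differ in the domain at their C-terminus. Many act in innate immunity: they attach ubiquitin to sensors, adaptors or kinases of the Toll-like receptor, RIG-I-like receptor and cGAS-STING pathways, or bind incoming viruses directly, and the genes of many of them are induced by interferon. Other members repress chromatin, organise microtubules, or work in muscle, red cell precursors or germ cells.

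Depth was 40730514 expected counts in replicate 1, 70484996 in replicate 2 and 49726063 in replicate 3. Levels are in TPM, the usual unit of transcript abundance corrected for transcript length, given as mean ± SD over the 3 libraries (n = 3). A gene is called detected where every library gives it at least 1 TPM. All 10 macrophage markers were detected, led by Lyz2 at 3262 ± 426 TPM. Of 28 markers of neutrophils, lymphocytes, dendritic cells, erythroid cells and stroma, only S100a8 was, at 4.12 ± 1.39 TPM. The summed level of the neutrophil markers was 2.56 to 5.12 TPM per library and that of the other 5 lists was at most 1.10 TPM, and Ly6g, Retnlg, Cd3g and Hbb-bs were among those at 0 counts in every library. Because noncoding RNA takes most of the TPM total in these libraries, the level of a messenger RNA scaled to nuclear protein-coding genes alone was 3.33 ± 0.28 times its TPM.

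In all 3 libraries 29 of the 68 members (42.6%) reached 1 TPM, against 40.1% of all protein-coding genes, and 14 members (20.6%) reached 10 TPM, against 16.6%. The shares of members that passed these levels therefore lay near the background. The median member had a log2(TPM + 1) that exceeded the median protein-coding gene by 0.44 ± 0.04, with differences of 0.42, 0.48 and 0.42 in replicates 1, 2 and 3. Both medians lay under the detection level of 1 TPM: the median of the mean levels was 0.507 TPM for members and 0.13 TPM for all protein-coding genes. With genes under 1 TPM left out of both sides the difference was 0.11 ± 0.14, and its sign changed between libraries. It was -0.04, 0.15 and 0.23 in replicates 1, 2 and 3. The family took 0.188 ± 0.008% of the nuclear protein-coding TPM. Within it the RNA was unevenly spread: the 10 genes of the TRIM5 clade took 52.6 ± 1.6% of the summed family TPM, and Trim30a, Trim30b, Trim30c and Trim30d alone took 38.4 ± 2.9%.

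**Figure D1:**
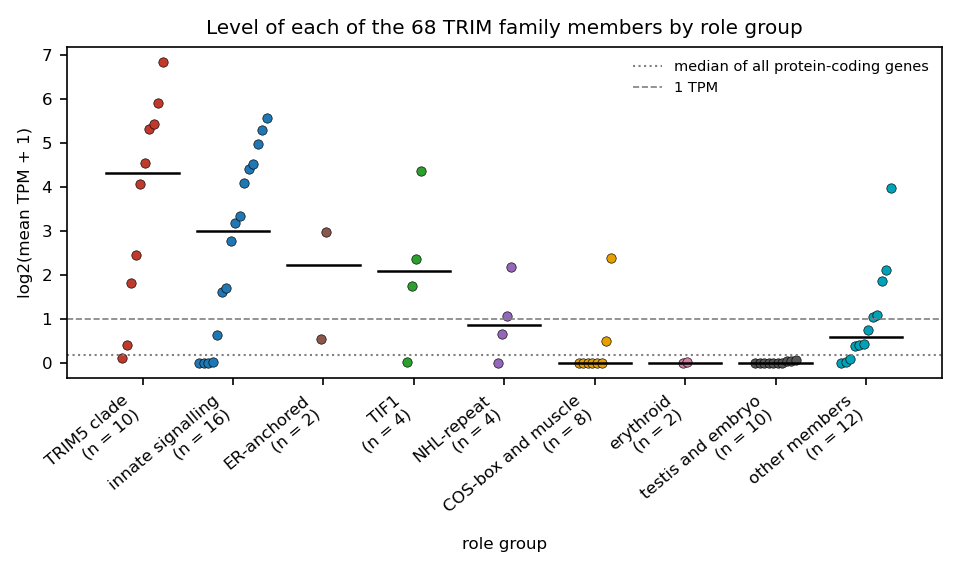
Mean level of each of the 68 members on the log2(TPM + 1) scale, by role group; each point is 1 gene and each black bar is the group median, with the dotted line at the median of all protein-coding genes and the dashed line at 1 TPM. The TRIM5 clade and the innate signalling ligases hold 12 of the 14 members at 10 TPM or more in all libraries, and the erythroid and the testis and embryo groups lie at or near 0.

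The TRIM5 clade consists mostly of ligases with a C-terminal SPRY domain, whose primate member TRIM5 binds retroviral capsids. In the mouse it has expanded into neighbouring copies on chromosome 7, which lie at 104218793 to 104507849 of the mm10 build, within 289 kb. Of its 10 genes 8 were detected and 6 reached 10 TPM in all libraries. Trim30a, which restrains Toll-like receptor signalling in mouse macrophages by promoting the loss of the adaptors TAB2 and TAB3, was the most abundant member of the whole family. It had 135, 103 and 104 TPM in replicates 1, 2 and 3 and ranked at place 436 among protein-coding genes. Its neighbour Trim30d had 72.1, 55.5 and 51.3 TPM, and Trim30a exceeded it in every library, with no overlap of their values. The log2 ratio of Trim30a to Trim30d was 0.93 ± 0.07. Trim30c had 59.2, 34.4 and 33.5 TPM, with replicate 1 well above the others, and Trim30b had 5.95, 3.03 and 4.49 TPM.

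The Trim30 copies resemble each other closely enough that reads can be shared, so the opening of the coding sequence is shown for the most abundant pair. The first 60 coding bases of the annotated transcripts Trim30a-201 and Trim30d-201 differ at 5 positions, given in capitals.
Trim30a: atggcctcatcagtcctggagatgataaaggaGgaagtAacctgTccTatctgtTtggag
Trim30d: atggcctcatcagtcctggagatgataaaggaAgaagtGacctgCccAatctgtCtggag
Over the whole alignment, 1345 of 1491 coding bases (90.2%) were identical between Trim30a and Trim30d, and 83.2% between Trim30a and Trim30c. Of all 50-base words in the transcripts of Trim30a, 5.98% also occurred in another annotated gene, and 7.49% of those of Trim30d did. Most of the sequence of these copies could thus be told apart by reads of that length.

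The 2 mouse genes named Trim12 stand beside Trim5 and are its closest relatives. Trim12c had 17.0, 14.9 and 15.5 TPM in replicates 1, 2 and 3. Trim12a had 37.7, 43.0 and 36.0 TPM, and Trim5 itself had 2.34, 2.59 and 2.65 TPM. The levels of these genes did not overlap, and the log2 ratio of Trim12c to Trim12a was -1.30 ± 0.20. This order is tied to transcript length: on expected counts, a measure without that correction, the same ratio was 0.75 ± 0.16, so that Trim12c was the higher one. In Trim12a 46.6 ± 3.8% of the TPM lay on Trim12a-206, a transcript of 562 nt without a coding sequence. Protein-coding transcripts alone summed to 15.8 ± 1.1 TPM in Trim12c and to 20.0 ± 1.8 TPM in Trim12a.

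The near identity of this pair is seen in the first 60 coding bases of Trim12a-203 and Trim12c-201, which differ at the 2 positions in capitals.
Trim12a: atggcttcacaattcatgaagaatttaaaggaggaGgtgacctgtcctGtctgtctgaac
Trim12c: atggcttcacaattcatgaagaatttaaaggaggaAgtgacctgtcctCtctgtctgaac
Identity over the aligned coding sequence was 96.3% between Trim12a and Trim12c, 97.0% between Trim5 and Trim12a and 96.6% between Trim5 and Trim12c. The annotated coding sequence of Trim12a-203 is shorter, with 894 nt, while Trim12c-201 has 1494 nt. Whether the shorter one encodes a SPRY domain was not examined. Of the 50-base words in all annotated transcripts, 10.4% in Trim12a, 33.0% in Trim12c and 36.3% in Trim5 also occurred in another annotated gene. The words of Trim12a include those of its retained-intron transcript Trim12a-205, of 3730 nt, which held 1.42 ± 0.32% of its TPM. Its share over the coding transcript alone was not computed and could be larger. The largest share with a single gene was 24.2% for Trim12c, with Trim5, and 23.5% for Trim5, with Trim12c. The split of reads among these genes is therefore uncertain.

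Trim34a and Trim34b are the most alike pair of the clade in coding sequence, and their levels lay far apart. Trim34a, the mouse counterpart of a gene whose primate product also restricts retroviruses, had 25.1, 21.5 and 20.4 TPM in replicates 1, 2 and 3. Trim34b had 0.07, 0.08 and 0.08 TPM, with 6.52, 15.6 and 11.2 expected counts. The log2 ratio of Trim34a to Trim34b was 8.18 ± 0.27, and no library came near the other gene. Their first 60 coding bases differ at 2 positions, in capitals.
Trim34a: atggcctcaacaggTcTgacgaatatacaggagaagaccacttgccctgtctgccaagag
Trim34b: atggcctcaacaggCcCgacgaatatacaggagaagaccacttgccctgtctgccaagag
Of 1454 aligned coding bases 1428 (98.2%) were identical, and 39.8% of the 50-base words of Trim34a and 56.8% of those of Trim34b occurred in the other gene. Reads from the shared stretches were assigned by the authors' program, so the few counts of Trim34b could include reads of Trim34a. The remaining gene of the clade, Trim6, was not detected, with 0.29, 0.26 and 0.41 TPM.

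**Figure D2:**
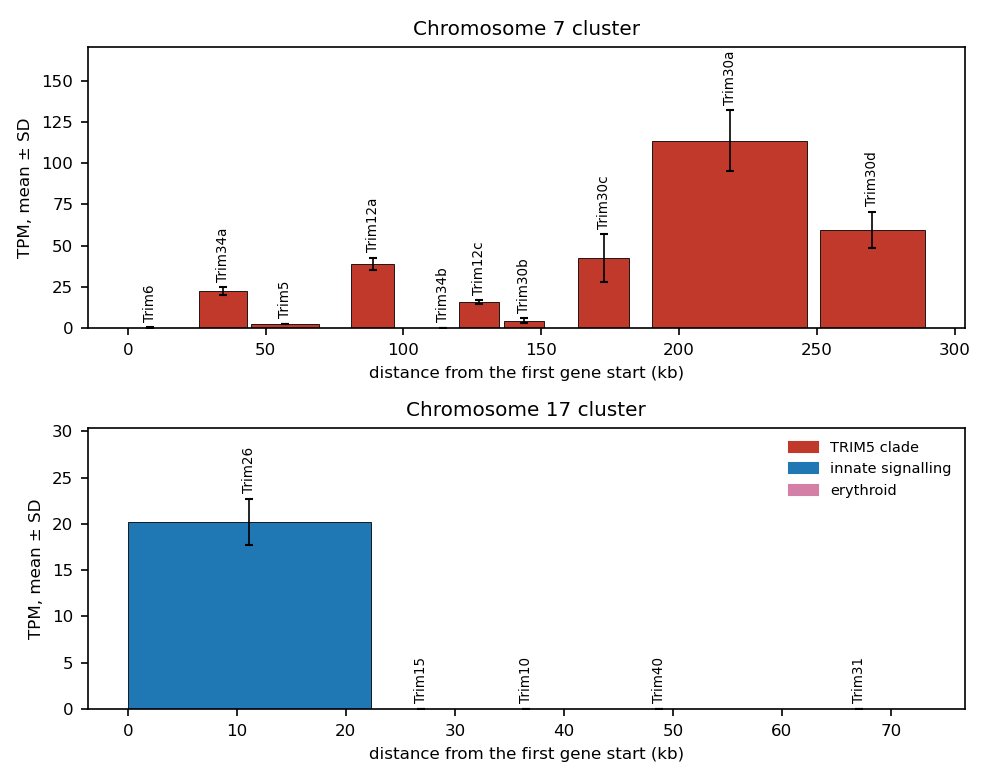
Mean TPM of each member along the clusters on chromosome 7 and chromosome 17, plotted against distance from the first gene start in kb; bar width is gene length and error bars are the SD over 3 libraries. On chromosome 7 Trim30a, Trim30d, Trim30c, Trim12a and Trim34a stand above 20 TPM while Trim6 and Trim34b, in the same 289 kb, lie near 0; on chromosome 17 Trim26 stands alone.

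The ligases of innate signalling and nucleic acid sensing formed the next group, with 11 of 16 detected and 6 at 10 TPM or more in all libraries. Trim25, which attaches ubiquitin in the pathway of the viral RNA sensor RIG-I, was the highest of them, with 58.8, 42.6 and 37.1 TPM in replicates 1, 2 and 3. Trim14, an adaptor protein at mitochondria that acts with MAVS, had 41.2, 36.8 and 37.5 TPM. Trim35, reported to act on the interferon regulatory factor IRF7, had 33.9, 31.5 and 26.1 TPM and lay below Trim14 and above Trim34a with no overlap. Trim21, the cytosolic receptor for antibody-coated viruses, had 26.6, 21.3 and 17.8 TPM. The log2 ratio of Trim25 to Trim21 was 1.07 ± 0.07. Trim26, a ligase with a role in the control of IRF3, had 23.1, 18.7 and 19.0 TPM, and Trim8, which promotes NF-kappaB activation after TNF, had 18.3, 12.7 and 17.1 TPM.

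Below 10 TPM the same group held Trim27, a ligase that dampens IKK kinases, at 9.12 ± 0.75 TPM, and Trim44, which has a zinc finger in place of the RING and stabilises MAVS, at 8.11 ± 0.45 TPM. Trim56, which acts on STING and cGAS, had 5.89 ± 0.22 TPM. Trim23, a ligase with an ADP-ribosylation factor domain, had 2.24 ± 0.11 TPM, and Trim65, which acts on the RNA sensor MDA5, had 2.06 ± 0.13 TPM. The other members of the group were Trim68 at 0.553 ± 0.055 TPM and Trim15, Trim38, Trim31 and Trim40, of which none had more than 2 counts in a library.

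In neighbours ranked by mean level, the values of the libraries overlapped for most pairs among the 14 highest members. Trim30a stood apart from Trim30d, Trim14 from Trim35, and Trim35 from Trim34a. The ranges of the other 10 neighbouring pairs overlapped: Trim30d still exceeded Trim25 within each of the 3 libraries, and in the rest the order changed between libraries. Of the 29 detected members, 17 (58.6%) had their highest TPM in replicate 1, 6 (20.7%) in replicate 2 and 6 (20.7%) in replicate 3, against 48.0, 38.5 and 13.5% of detected protein-coding genes. On counts scaled by library size factors the numbers of members were 15, 3 and 11.

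**Figure D3:**
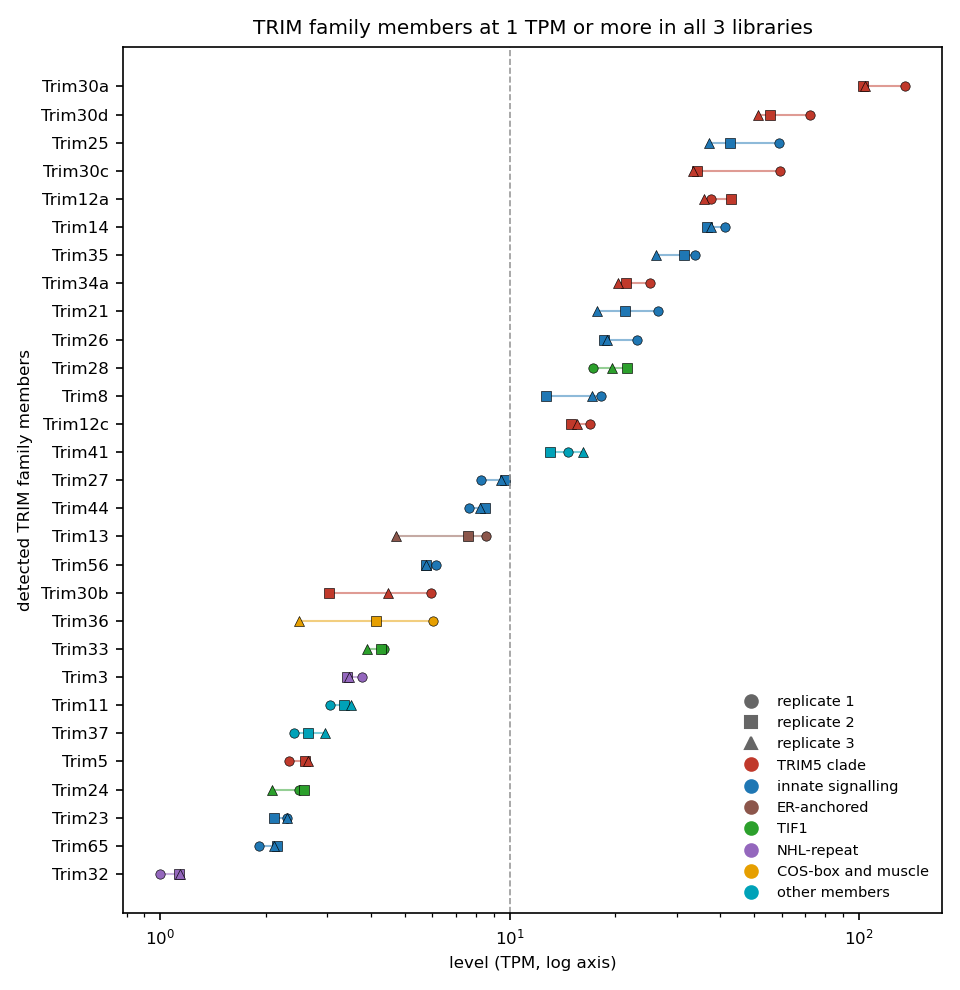
TPM of the 29 detected members in each library on a log axis, with 1 symbol per replicate, colours by role group and a dashed line at 10 TPM. Trim30a, at 103 to 135 TPM, lies apart from all others, and the spread is widest for Trim36, Trim30b, Trim30c and Trim13.

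Of the TIF1 members, which carry a bromodomain and act on chromatin, 3 of 4 were detected. Trim28, the corepressor recruited by KRAB zinc finger proteins, had 17.3, 21.7 and 19.6 TPM in replicates 1, 2 and 3. Trim33, which takes part in TGF-beta signalling, averaged 4.18 ± 0.25 TPM, and Trim24, a coregulator of nuclear receptors, averaged 2.38 ± 0.27 TPM. The log2 ratio of Trim28 to Trim33 was 2.22 ± 0.20 and that of Trim28 to Trim24 was 3.03 ± 0.22. Much of the Trim28 level lay on short noncoding transcripts: its protein-coding transcript Trim28-201 had 7.33 ± 0.34 TPM, against 3.89 ± 0.30 TPM over the protein-coding transcripts of Trim33 and 2.35 ± 0.27 TPM over those of Trim24. Trim66 had 0.01 TPM in every library.

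The remaining groups were mostly low. Of the ER-anchored members, Trim13, a ligase of ER-associated degradation, was detected at 6.95 ± 1.99 TPM and Trim59 was not, at 0.460 ± 0.131 TPM. Of the NHL-repeat members, Trim3 had 3.55 ± 0.19 TPM and Trim32 had 1.09 ± 0.08 TPM, Trim2 had 0.580 ± 0.090 TPM and Trim71 had 0 counts. Of the 8 COS-box and muscle members, which bind microtubules or act in the muscle sarcomere and membrane, only Trim36 was detected. None of the 2 erythroid and 10 testis and embryo members was detected, and none of these 12 had more than 12 counts in a library. Among the 12 members outside these groups, Trim41, first described as a ligase that binds protein kinase C, had 14.7, 13.1 and 16.2 TPM in replicates 1, 2 and 3. Trim11, which acts in clearing misfolded proteins, had 3.30 ± 0.23 TPM, and Trim37, which acts at peroxisomes and centrosomes, had 2.67 ± 0.27 TPM.

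Of the 39 members not detected, 37 were under 1 TPM in all libraries and 2 crossed it in part. Trim47 had 1.05, 1.45 and 0.87 TPM in replicates 1, 2 and 3, Trim39 averaged 1.05 ± 0.09 TPM, and the next were Trim62 at 0.693 ± 0.015 TPM and Trim2. Trim10, Trim31, Trim40, Trim42, Trim50, Trim52, Trim54, Trim55, Trim60, Trim61, Trim63, Trim67, Trim71 and Trim80 had 0 expected counts in all libraries. For these 14 genes in the gene table, 3 counts in the library where they are worth most allow a level from 0.00527 TPM for Trim71 up to 0.0545 TPM for Trim40, which covers counting error only. The second transcript table gave Trim52 0.023, 0.039 and 0.063 TPM in replicates 1, 2 and 3. TPM in that table is on a lower scale: Trim30a had 64.6 ± 7.8 TPM there and 114 ± 18 TPM in the gene table. The values of Trim52 can therefore not be set directly against its limit of 0.0302 TPM in the gene table. Scaled to nuclear protein-coding genes, its mean was 0.256 TPM in the second transcript table and 0 TPM in the gene table. The level of 0 for Trim52 thus depended on the table. The second transcript table also gave values above 0 in at least 1 library for Trim50, Trim63, Trim67 and Trim71.

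Low and high members lay side by side on other chromosomes too. On chromosome 17, within 73.1 kb, Trim26 at 20.2 ± 2.5 TPM stood beside Trim15 at 0.01 TPM and Trim10, Trim40 and Trim31 at 0 counts. On chromosome 11, Trim41 stood beside Trim7 at 0.343 ± 0.078 TPM, and Trim11 beside Trim17 at 0.073 ± 0.025 TPM. Several members overlap other genes, and the sources used here do not give whether reads were counted by strand. Trim14 shares 9852 nt with Nans on the opposite strand, at 6.63 ± 0.58 TPM, and Trim28 shares 6137 nt with Zbtb45, at 2.05 ± 0.06 TPM. Trim41 shares 31 nt with Rack1, at 81.2 ± 12.6 TPM, and Trim13 shares 3108 nt with Dleu2, at 4.71 ± 0.54 TPM. Trim47 and Trim65 share 5365 nt of 1 strand. These lengths are of whole gene spans, introns included, and do not measure how many reads are ambiguous. Levels of these members are uncertain by an amount that was not determined.

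The spread over libraries was tested per gene in edgeR, as the deviance of the counts from 1 common level under the trended dispersion, with Benjamini-Hochberg adjustment over 12256 genes. Of the 41 members tested 1 was called variable (2.44%), against 1.96% of all genes, a share near the background. The member called was Trim36, a ligase known from the acrosome of mouse sperm, with 6.02, 4.14 and 2.50 TPM in replicates 1, 2 and 3. It was highest in replicate 1 and lowest in replicate 3 (edgeR, adjusted p = 0.0314). The call was lost without replicate 1 (edgeR, adjusted p = 0.495), without replicate 3 (edgeR, adjusted p = 1.00) and with a common dispersion in place of the trend (edgeR, adjusted p = 0.152). Trim30b, Trim30c and Trim13 had unadjusted p under 0.05 and were not called, with adjusted p of 0.116, 0.224 and 0.620 by edgeR. In replicates 1, 2 and 3 the interferon gene Ifnb1 had 26.5, 5.81 and 4.54 TPM, while the nuclear RNA Malat1 had 103, 132 and 345 TPM. The part of either difference between the libraries in the spread of these members was not tested.

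**Figure D4:**
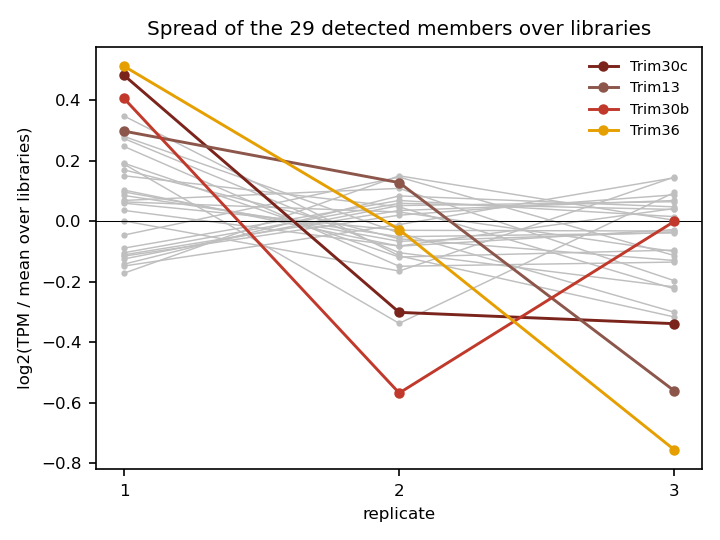
log2 of TPM over the mean of 3 libraries for the 29 detected members; lines join the values of 1 gene, the replicates have no order, and the 4 members with an unadjusted p under 0.05 are coloured. Trim36, Trim30b and Trim30c are highest in replicate 1, and Trim36 and Trim13 are lowest in replicate 3.

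Transcript shares, the percent of a gene's TPM on each annotated transcript, separated what is read as the gene from what can be translated. In 4 of the 29 detected members the leading transcript was not protein-coding, against 417 of 8838 detected protein-coding genes (4.72%). In Trim30b the retained-intron transcript Trim30b-202 held 86.6 ± 3.7% of the gene, and its protein-coding transcripts together had only 0.547 ± 0.269 TPM. In Trim28 the retained-intron transcript Trim28-203, of 565 nt, held 42.0 ± 4.6% and the protein-coding Trim28-201, of 3245 nt, held 37.7 ± 2.4%. In Trim26 the noncoding Trim26-209 held 32.5 ± 5.3% and the protein-coding Trim26-205 held 28.5 ± 0.9%. Most of the TPM of Trim26 was nevertheless on protein-coding transcripts, which together had 13.55 ± 2.80 TPM, against 20.2 ± 2.5 TPM for the gene. The other gene was Trim12a, described above.

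In 5 of the 29 members the leading transcript held under 50% of the gene, a share near the 14.4% of detected protein-coding genes. Besides Trim12a, Trim28 and Trim26, these were Trim34a and Trim33. In Trim34a the protein-coding transcripts Trim34a-203 and Trim34a-201 held 49.1 ± 4.4% and 46.5 ± 3.1%, a difference smaller than the spread between replicates. In Trim33 the leading transcript was the protein-coding Trim33-202 at 39.9 ± 2.4%.

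Both counts depended on how the shares were taken. The values for all detected protein-coding genes were computed by TPM of the first transcript table only. Whether members exceed them under other measures can therefore not be judged. The second transcript table, made directly from the reads, named the same leading transcript in 26 of the 29 members, and the exceptions were Trim12a, Trim26 and Trim28. There the noncoding transcripts Trim12a-206, Trim26-209 and Trim28-203 held 35.8 ± 2.8%, 10.3 ± 3.9% and 24.8 ± 6.6%, each below a protein-coding transcript of its gene. In Trim28 another noncoding transcript, Trim28-210, held 29.7 ± 5.8% in that table, above Trim28-203. Its only protein-coding transcript, Trim28-201, led with 44.9 ± 3.6%. The larger part of the TPM of Trim28 thus remained on noncoding transcripts in the second transcript table. By share of expected counts, Trim28-203 held 9.97 ± 1.29% and Trim28-201 held 81.2 ± 2.4%. Only Trim30b was led by a noncoding transcript under all 3 measures, with 76.6 ± 2.4% in the second transcript table and 87.5 ± 3.1% of expected counts on Trim30b-202.

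**Figure D5:**
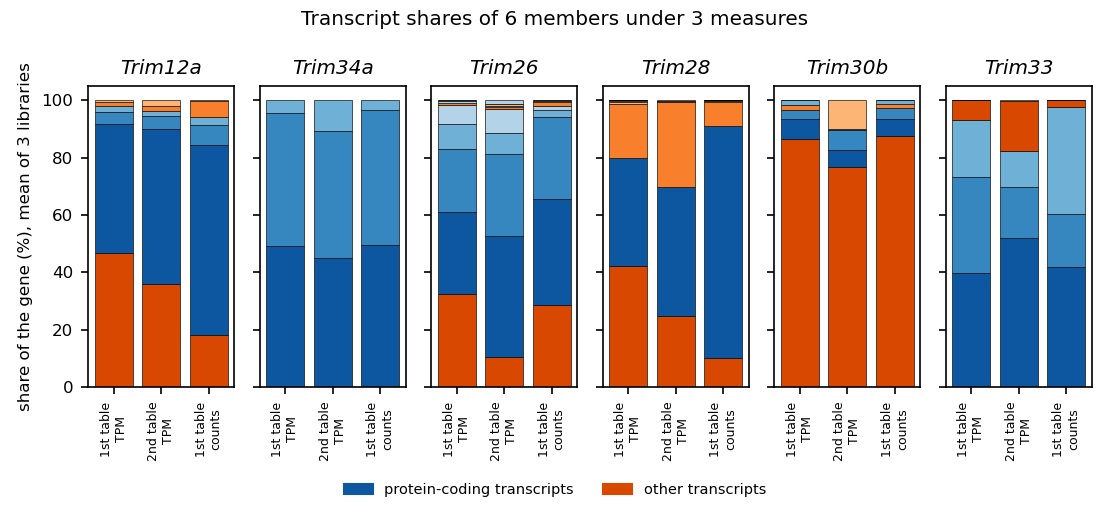
Share of each annotated transcript in 6 members, mean of 3 libraries, by TPM of the first transcript table, by TPM of the second and by expected counts of the first; blue is protein-coding and orange is not. The orange share of Trim12a, Trim26 and Trim28 falls under other measures. In Trim30b the noncoding transcript Trim30b-202 alone holds at least 76.6% under each, and other orange transcripts add to it.

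At the level of the gene, both tables were compared after scaling to nuclear protein-coding genes. The 5 members that differed most were taken among those with a mean of 1 TPM or more before this scaling. The log2 difference, the second table minus the first, was -0.28 ± 0.05 for Trim28, 0.26 ± 0.04 for Trim25 and 0.23 ± 0.04 for Trim30b. It was 0.16 ± 0.02 for Trim14 and -0.15 ± 0.02 for Trim26. Some members under that cut differed more, among them Trim2 by 0.58 ± 0.19 and Trim6 by 0.41 ± 0.20.

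Promoter sequence was examined because many TRIM genes are known interferon targets. RefSeq promoter windows of GRCm38.p6, from 250 bases before to 50 after the start of a gene, were given for 53 of the 68 members. The searched core of the interferon-stimulated response element (ISRE) was GAAANNGAAA on either strand, in which overlapping matches were each counted. It occurred in 9 of the 53 members (17.0%), against 3.99% of 27025 genes with a window. These were Trim5, Trim12a, Trim12c, Trim30a, Trim30d and Trim34a of the chromosome 7 cluster, Trim21, Trim26 and Trim2. Of these 9 members 8 were detected and 7 reached 10 TPM, the exception in detection being Trim2. Of the 44 members with a window and no core, 13 were detected and 4 reached 10 TPM, among them Trim25 and Trim30c at 46.2 and 42.4 TPM. Trim14, Trim35 and Trim8, also at 10 TPM or more, had no window. Of all protein-coding genes 40.1% were detected and 16.6% reached 10 TPM. These shares were not computed for all genes with and without a core, and a link between core and level was not tested. The copies of the chromosome 7 cluster share their sequence and are not separate cases.

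The 60 bases around the core are shown for members in which they end before the gene start, read along the strand of the gene with the core in capitals, here in its reverse orientation. They lie at chr7:104465195-104465254 for Trim30a, chr7:104507856-104507915 for Trim30d and chr7:104288121-104288180 for Trim5, all on the minus strand, and at chr17:36836961-36837020 on the plus strand for Trim26.
Trim30a: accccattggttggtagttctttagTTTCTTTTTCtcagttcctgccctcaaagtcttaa
Trim30d: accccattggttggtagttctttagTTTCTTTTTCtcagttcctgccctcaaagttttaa
Trim5: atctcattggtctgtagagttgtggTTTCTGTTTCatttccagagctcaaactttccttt
Trim26: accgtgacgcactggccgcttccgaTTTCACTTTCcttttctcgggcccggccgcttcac
In Trim26 another match overlaps the one in capitals. The stretch of Trim5 is repeated letter for letter in the window of Trim12a. Its core begins 49 bases before the gene start in Trim5, and in Trim12a at base 11 counted from that start. The levels of Trim5 and Trim12a were 2.53 ± 0.16 and 38.9 ± 3.7 TPM. Over protein-coding transcripts alone they were 2.53 ± 0.16 and 20.0 ± 1.8 TPM. The split of reads between these genes is uncertain, and a link of their levels to the core was not tested. The longer form of the core with CT after it (GAAANNGAAACT) occurred in Trim30a, Trim30d and Trim34a, and in 0.303% of all genes with a window. The kappaB motif occurred in 1 member, Trim43a, against 5.14% of all genes. A match is a description of these letters and not of binding.

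Listed relatives and partners of the TRIM proteins were mostly detected, against 40.1% of all protein-coding genes. The lists were chosen with earlier results of these data known, so their shares describe the listed genes only. Of the family members known under other symbols 3 of 4 were detected: Pml, the organiser of nuclear bodies, at 29.5 ± 6.4 TPM, Mid1, a microtubule ligase, at 18.9 ± 7.8 TPM and Mefv, which encodes the inflammasome sensor pyrin, at 13.7 ± 2.7 TPM, while Mid2 had 0.023 ± 0.032 TPM. Of 15 listed genes from the families of ubiquitin-activating and -conjugating enzymes, 14 were detected. Ube2d3, Ube2l6, Ube2l3 and Ube2d2a were highest, at 145 ± 13.4, 109 ± 19.7, 87.5 ± 11.5 and 56.0 ± 4.8 TPM, and Uba6 and Ube2e2 were lowest, at 3.64 ± 0.27 and 0.697 ± 0.319 TPM.

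All 17 listed and annotated signalling proteins that TRIM ligases act on or with were detected. The ubiquitin-like modifier Isg15 was highest, with 1003, 535 and 536 TPM in replicates 1, 2 and 3. Ddx58, which encodes RIG-I, had 104 ± 20.5 TPM, Zc3hav1, the zinc finger antiviral protein that works with Trim25, had 62.9 ± 11.6 TPM, and Ifih1, which encodes MDA5, had 57.0 ± 17.5 TPM. Cgas and Tab3 were lowest, at 3.44 ± 0.61 and 2.46 ± 0.15 TPM. All 13 listed corepressor partners of TRIM28 were detected, led by Chd4, Hdac1, Cbx3 and Atf7ip at 32.0 ± 1.2, 16.0 ± 1.4, 14.4 ± 0.6 and 10.3 ± 0.9 TPM. Morc2a and Mphosph8 were lowest, at 4.33 ± 0.26 and 3.11 ± 0.67 TPM.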

How the data were processed

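The authors deposited a gene table and 2 transcript tables for each of the 3 libraries, which per the deposited README notes rest on mm10 and GENCODE M21. The sources used here do not give the programs. The authors' expected counts (gene and first transcript tables) and estimated counts (second transcript table) are deposited without normalization. The TPM and FPKM values were corrected for effective length by the authors, per the file headers. The percent values in the deposited first transcript table are the share of a gene's TPM on each transcript. The posterior SD, used as a score of counting certainty, was deposited by the authors in counts.

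Library sizes and tests used annotated genes alone, without phiX, ERCC and tRNA features. Expected counts were rounded and tested in edgeR 4.0.16 (R 4.3.3) after filterByExpr and TMM scaling; an intercept-only fit with the trended dispersion gave a deviance compared with a chi-square distribution with 2 degrees of freedom. The script was tested on simulated data. Sequences were compared with Biopython 1.88 on GENCODE M21 transcripts. Ratios and medians have no p, since 3 libraries cannot give a two-sided sign-flip p below 0.25.

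The members, role groups and partner lists were chosen with earlier results of these data known. Every member with a mean of 10 TPM or more was named with its values. Every other detected member and every TRIM5 clade gene was named by its mean. Members not detected were given by count, with the 4 highest and those at 0, and other lists by their 4 highest and 2 lowest. The 5 members at 1 TPM or more before scaling that differed most between tables were also named. Genes that overlap or neighbour a member, Ifnb1 and Malat1 were chosen after their values were seen. So were members named as undetected within a role group, and Trim2 and Trim6 in the comparison of tables.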

Additional observations from a re-analysis of the deposited data

How the results depend on the processing

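No paired analysis was possible because all 3 libraries form 1 group. Of 75 alternatives tried, 4 were chosen after seeing the data. In 47 alternatives a value stayed within 1 SD of the reported one, or a count within 1.5 times of it. These include the median and the ratios with 1 replicate left out. Leaving out 1 of 3 libraries cannot move their mean by 1 SD, so these cases had a fixed outcome and do not show stability. In 1 alternative a value was reversed: the log2 ratio of Trim12c to Trim12a was 0.75 on expected counts. Members detected numbered 17 at a threshold of 5 TPM and 14 at 10 TPM. The difference between the member and protein-coding medians was 1.46 with a pseudocount of 0.1, 0.11 among detected genes, 0.26 in the second transcript table, 0.95 after scaling to nuclear protein-coding genes and 0.64 with FPKM. With a common dispersion edgeR called 0 members variable, with 5 at an unadjusted p under 0.05. On expected counts the log2 ratio was 1.46 for Trim30a to Trim30d, 8.75 for Trim34a to Trim34b, 2.13 for Trim25 to Trim21, 0.51 for Trim28 to Trim33 and 1.63 for Trim28 to Trim24. In the second transcript table it was 7.92 for Trim34a to Trim34b (8.63 on its counts), 1.33 for Trim25 to Trim21, 1.90 for Trim28 to Trim33 and 2.75 for Trim28 to Trim24. With a pseudocount of 1 TPM it was 4.43 for Trim34a to Trim34b, 1.98 for Trim28 to Trim33 and 2.60 for Trim28 to Trim24. Members led by a noncoding transcript numbered 1 in the second transcript table and 1 by expected counts, and members whose leading transcript held under 50% numbered 3 in the second table. The ISRE core followed by CT left 3 members. Apart from the alternative's own construction, the cause was not tested.

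Leaving out each replicate in turn gave 29 to 30 members detected, a median difference of 0.42 to 0.45 and 0 to 1 members called variable by edgeR, with 4 and 2 at an unadjusted p under 0.05 where replicate 1 and replicate 3 were left out. It gave log2 ratios of 0.90 to 0.96 for Trim30a to Trim30d, -1.37 to -1.18 for Trim12c to Trim12a, 8.03 to 8.28 for Trim34a to Trim34b, 1.03 to 1.10 for Trim25 to Trim21, 2.16 to 2.33 for Trim28 to Trim33 and 2.93 to 3.15 for Trim28 to Trim24. It gave 3 to 4 members led by a noncoding transcript and 4 to 6 whose leading transcript held under 50%.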
